A study of Homo sapiens with 23 samples.

Results

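The mitochondrial ribosomal protein genes, here the protein-coding genes whose symbols are *MRPL* or *MRPS* followed by a number, were followed through THUMPD3 depletion in A549 cells. The rule used symbols alone and left out pseudogenes. It found 78 genes among the 61806 of the first count table and the same 78 among the 42901 of the deep table. Of these, 51 encode proteins of the large subunit, *MRPS30* and *MRPS18A* among them in spite of their symbols, and 26 encode proteins of the small subunit. *MRPS36* encodes a component of the 2-oxoglutarate dehydrogenase complex and is kept because its symbol meets the rule.

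A549 is a human lung adenocarcinoma cell line, and all 23 libraries came from it, each made from total RNA after removal of rRNA. THUMPD3 was depleted with an siRNA (siD3 #3, labelled siTHUMPD3, 3 libraries against 2 of siControl, harvested on day 5) or with doxycycline-inducible shRNAs in puromycin-selected, lentivirally transduced cells (shD3 #1 and shD3 #4, harvested on day 6, each with 3 libraries against 3 of its own control, sh1Control and sh4Control). Another 6 libraries, 3 of shD3 #1 and 3 of sh1Control, were sequenced more deeply and counted in a table of their own, and the labels do not say whether they came from the same cultures. The labels give the controls as WT and do not say whether the shRNA controls received doxycycline, and the study's methods call the reference samples untreated. Tetracyclines are known to inhibit mitochondrial translation, so in the shRNA comparisons THUMPD3 depletion and doxycycline cannot be told apart; siRNA transfection involved no doxycycline, but delivery and harvest day differed with it.

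The mitoribosome translates the mRNAs of the mitochondrial genome, all of which encode subunits of the respiratory chain and ATP synthase. Its rRNAs are made in the mitochondrion, whereas every one of its proteins is encoded in the nucleus, translated in the cytosol and imported. Part of them have counterparts in all ribosomes ("universal", 27 of the members), part only in bacterial ones (19), and part are particular to mitochondria (31).

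Libraries of the first table held 9854294 to 22101059 counts and the deep ones 27285889 to 59974740. The members took 0.208 to 0.338% of the counts in the first table and 0.14 to 0.173% in the deep table. *THUMPD3* itself, the targeted methyltransferase, averaged 51.3% of its control level in shD3 #1, 31.4% in shD3 #4, 17.1% in siD3 #3 and 49.6% in the deep shD3 #1 libraries, with no overlap between any knockdown and its control (exact two-sided permutation p = 0.1, 0.1, 0.2 and 0.1, each the smallest its design allows). All 5 epithelial markers were detected, at a summed 3660 to 7846 cpm over the libraries. Of 6 markers of other cell types, *COL1A1* alone was abundant enough to be tested, and *CD3E* was at 0 in all first libraries. Their summed level was 3.94 to 5.39 cpm in sh1Control and 7.13 to 8.78 in shD3 #1, 3.30 to 6.31 in sh4Control and 5.62 to 6.81 in shD3 #4, 2.45 to 3.53 in siControl and 4.91 to 6.27 in siD3 #3, and 7.74 to 8.34 in the deep controls and 25.6 to 28.1 in deep shD3 #1. Most of it was *COL1A1*, and its part in the results was not tested. SiD3 #3 replicate 3 differed more from its fellow replicates than any other library did from its own, with a chi-square per degree of freedom of 30.4 and 34.6 against 3.76 between the other pair.

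The promoters of 4 members that the results below turn on are shown to give the sequence around their starts: *MRPL11*, *MRPL18* and *MRPS27*, whose mRNAs were lower in all comparisons, and *MRPL58*, which moved in opposite directions under the shRNAs. Each window runs from 250 bases before to 50 bases after a RefSeq start (GRCh38.p14) and reads along the gene's strand. Capitals mark the ETS-type letters CGGAAG and the YY1-type letters AAGATGG on either strand; the NRF1-type letters GCGCATGC were searched too and do not occur in these windows. *MRPL11* lies on the minus strand (chr11:66438799-66439098), *MRPL18* on the plus strand (chr6:159789562-159789861, the most upstream of its 3 RefSeq windows), *MRPS27* on the minus strand (chr5:72320191-72320490) and *MRPL58* on the plus strand (chr17:75012420-75012719).
MRPL11: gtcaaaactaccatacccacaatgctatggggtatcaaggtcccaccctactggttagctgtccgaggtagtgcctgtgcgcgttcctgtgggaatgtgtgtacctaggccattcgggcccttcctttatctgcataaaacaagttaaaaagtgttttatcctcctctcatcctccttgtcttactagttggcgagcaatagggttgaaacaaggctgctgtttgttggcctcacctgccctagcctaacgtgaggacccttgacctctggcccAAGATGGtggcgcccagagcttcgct
MRPL18: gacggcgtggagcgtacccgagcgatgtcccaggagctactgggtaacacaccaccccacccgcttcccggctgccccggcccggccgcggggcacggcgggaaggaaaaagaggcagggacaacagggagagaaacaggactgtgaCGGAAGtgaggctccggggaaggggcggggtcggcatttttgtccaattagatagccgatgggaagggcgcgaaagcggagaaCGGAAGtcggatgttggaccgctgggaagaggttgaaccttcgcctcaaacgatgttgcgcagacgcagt
MRPS27: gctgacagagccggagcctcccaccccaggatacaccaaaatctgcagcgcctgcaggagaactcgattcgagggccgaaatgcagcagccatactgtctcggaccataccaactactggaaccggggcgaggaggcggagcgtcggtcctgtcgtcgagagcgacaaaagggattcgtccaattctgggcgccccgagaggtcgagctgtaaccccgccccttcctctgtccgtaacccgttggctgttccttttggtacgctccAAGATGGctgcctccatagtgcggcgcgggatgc
MRPL58: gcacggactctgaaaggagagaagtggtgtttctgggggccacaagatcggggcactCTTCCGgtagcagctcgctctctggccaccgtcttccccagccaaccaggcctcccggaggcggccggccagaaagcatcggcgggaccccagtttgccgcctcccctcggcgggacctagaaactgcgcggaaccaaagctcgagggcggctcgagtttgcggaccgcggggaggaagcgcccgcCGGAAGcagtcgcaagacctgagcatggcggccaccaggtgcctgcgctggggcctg

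Promoter windows were held for 69 of the members. CGGAAG occurred in the windows of 38 of them, 55.1%, against 30.1% of the 15345 protein-coding genes with a window. AAGATGG occurred in 24 members, 34.8%, against 7.94% of protein-coding genes, and GCGCATGC in 6, 8.7%, against 4.89%. The letters were chosen after the sequences had been seen, and a match is a string of letters rather than a bound site. No difference with the letters was tested. In siD3 #3 the median was -0.40 in the 37 tested with CGGAAG and -0.39 in the 31 without. In shD3 #4 it was -0.22 in the 24 with AAGATGG and -0.24 in the 44 without. The largest gaps were in shD3 #1, with medians of 0.02 with CGGAAG and -0.15 without in the first libraries, and -0.38 with AAGATGG and -0.22 without in the deep ones.

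In control cells the members spanned a wide range. Per kb of exon, their median level over the first control groups was 11.8 cpm, with *MRPS34* (71.9 cpm per kb), *MRPL51* (52.0) and *MRPS26* (49.8) highest. All 3 encode mitochondria-specific proteins, MRPS34 and MRPS26 in the small subunit and MRPL51 in the large. *MRPS34* and *MRPS26* were lower in shD3 #4 (log2 -0.46 and -0.33) and siD3 #3 (-0.66 and -0.50) and did not pass in the first shD3 #1 libraries (-0.02 and 0.07). *MRPL2*, *MRPS24* and *MRPL53* stood lowest, at 0.536, 0.247 and 0.0344 cpm per kb.

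**Figure D1:**
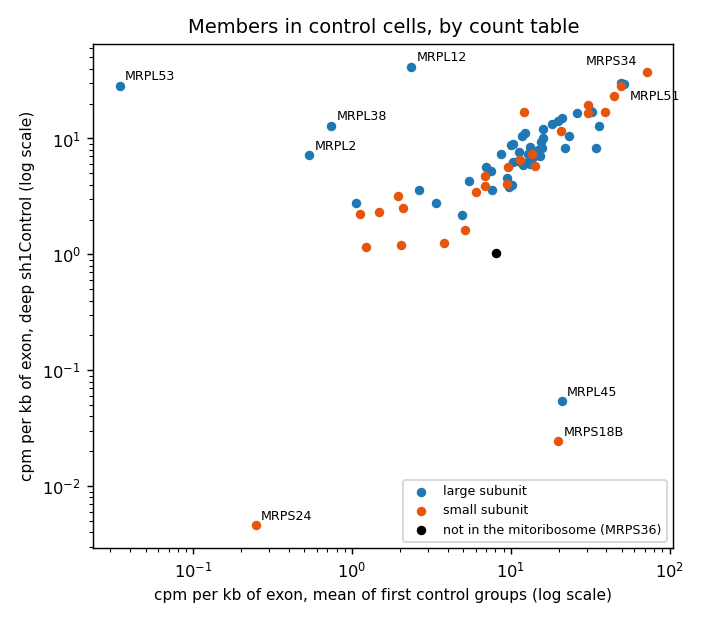
Level of each member in control cells, in cpm per kb of exon on log scales, as the mean of the first control groups (horizontal) and in deep sh1Control (vertical), coloured by subunit. Most members lie along 1 band, while *MRPL53*, *MRPL12*, *MRPL38* and *MRPL2* lie above it and *MRPL45*, *MRPS18B* and *MRPS24* below it.

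The lowest levels depended on the table. *MRPL53* had 0 to 3 counts in the first libraries but 402 to 1172 in the deep ones, and 72.8% of its exon bases are shared with *CCDC142* on the same strand. *MRPL12*, a protein of the ribosomal stalk, stood at 2.36 cpm per kb in the first controls and 41.5 in the deep controls, *MRPL38* at 0.737 and 12.9. The reverse held for *MRPS18B*, at 19.8 cpm per kb in the first controls and 0.0246 in the deep ones, and for *MRPL45*, at 21.0 and 0.0542. The counting discards reads that fall on more than 1 annotated gene, the tables use different gene identifiers, and 9 members share over 20% of their exon bases with another gene on the same strand. *MRPL53*, *MRPL12* and *MRPL38* are among the 9, whereas *MRPS18B* and *MRPL45* share 0% on either strand. On the opposite strand 11 members share over 20%, *MRPL53* (79.4%) among them, and the strand column used for counting is not given. The tables were scaled separately, so these levels stand side by side only, and the part of annotation in them was not tested.

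In shD3 #1 the members split. Of 77 tested, 21 were lower and 10 higher at an adjusted p under 0.05 (edgeR quasi-likelihood test, Benjamini-Hochberg over all genes), where 27.8% of all genes tested were lower and 28.6% higher. Past a 1.5-fold change as well (past both thresholds), 9 were lower, against 14.6% of all genes, and none higher, against 14.5%. The median log2 fold change was -0.02, next to -0.01 over all genes, and the lowest member stood at -1.33. Knockdown libraries lay below every control library for 21 members, against 31.2% of genes. The 10 higher calls became 5 without sh1Control replicate 1 and 4 without replicate 2.

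In shD3 #4 most members were lower, by small amounts. Of 77 tested, 43 were lower, against 20.8% of all genes, and 2 were higher, against 20%, namely *MRPS5* and *MRPS25* (log2 0.47 and 0.27; *MRPS25* is named after its value was seen). Past both thresholds 1 was lower, *MRPL18*, against 4.49% of genes, and none was higher, against 8%; without sh4Control replicate 3 that count was 3, and without shD3 #4 replicate 3 it was 2. The median of the members was -0.22, where that of all genes was 0.01. The groups did not overlap, with the knockdown lower, for 43 members, against 24.7% of genes.

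In siD3 #3 every tested member had a negative log2 fold change, all 77, whereas 8161 of the 17032 genes tested did. Lower at an adjusted p under 0.05 were 45, against 16.4% of genes, and higher 0, against 16.6%; with every change negative, none was higher at an unadjusted p either, and DESeq2 called 0. Past both thresholds 13 were lower, against 9.42%, and 0 higher, against 12.5%, and the median was -0.39, next to 0.03 over all genes. Knockdown libraries were below both controls for 64 members, against 29.5% of genes. With only 2 controls the number passing depended on single libraries: it was 26 without siControl replicate 1, 19 without siControl replicate 2 and 29 without siD3 #3 replicate 1, each time in the same direction, and the 13 became 20 without siControl replicate 1.

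In the deep shD3 #1 libraries 48 of 75 tested members were lower, against 31.5% of genes, and 7 higher, against 31.1%. Past both thresholds 12 were lower, against 14.1%, and 0 higher, against 15%. The median was -0.28, against -0.02 over all genes, and for 47 members the knockdown lay wholly below the controls, against 34% of genes. The 7 higher calls became 4 without deep sh1Control replicate 1 or 2, or without deep shD3 #1 replicate 2 or 3.

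**Figure D2:**
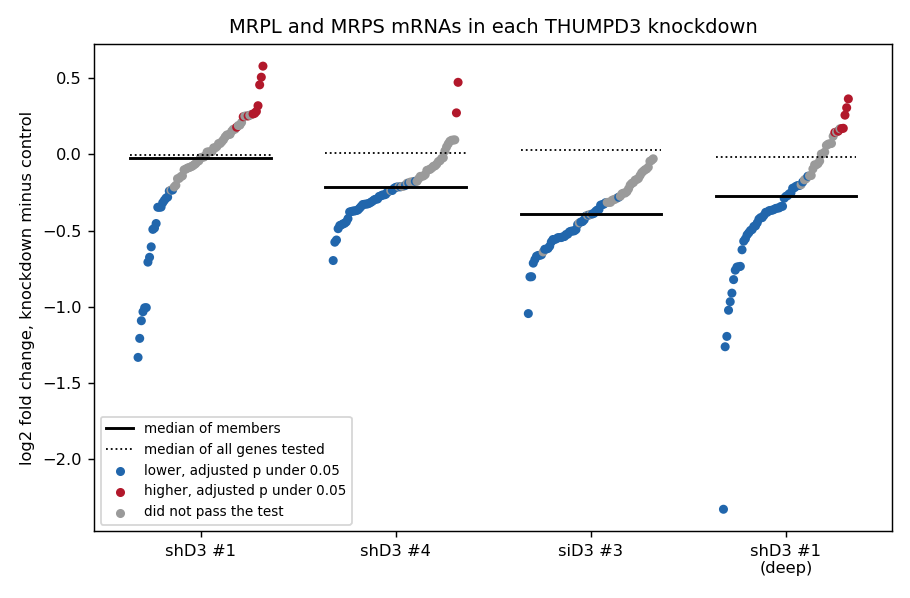
Log2 fold change (knockdown minus control) of every tested member in each comparison, ordered by size within it, with points coloured by the edgeR test and lines at the medians of the members and of all genes tested. The members' median is level with that of all genes in the first shD3 #1 libraries (-0.02) and below it in shD3 #4 (-0.22), siD3 #3 (-0.39) and deep shD3 #1 (-0.28).

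Summed over the 78 members, the level was 3087 and 3165 cpm in siControl and 2358, 2404 and 2180 in siD3 #3. In shD3 #4 it was 2167, 2277 and 2270 cpm against 2805, 2691 and 2450 in sh4Control. Neither pair of groups overlapped. In shD3 #1 it was 2138, 2095 and 2474 cpm against 2432, 2275 and 2442, and here the groups overlapped. The deep libraries gave 1372, 1453 and 1525 cpm against 1705, 1674 and 1742, without overlap. These are shares of the mRNA in bulk samples, so fewer cells of a kind and less RNA per cell cannot be told apart.

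Large and small subunit genes had similar medians. In siD3 #3, 30 of 50 tested large subunit members and 15 of 26 small subunit members were lower, with medians of -0.42 and -0.39. In shD3 #4 the counts were 30 of 50 and 13 of 26, with medians of -0.24 and -0.19, and in the deep libraries 32 of 50 and 16 of 24, with medians of -0.27 and -0.35. The first shD3 #1 libraries gave 15 of 50 and 6 of 26, with medians of -0.02 and -0.05. Grouped by ancestry, lower calls in the first shD3 #1 libraries were 12 of 27 among universal members, 6 of 19 among bacterial-type members and 3 of 30 among those particular to mitochondria. The deep libraries of the same shRNA gave 20 of 26, 15 of 19 and 13 of 29 in that order, while shD3 #4 gave 13 of 27, 10 of 19 and 20 of 30 and siD3 #3 gave 19 of 27, 11 of 19 and 15 of 30. Over all genes tested, 27.8% were lower in shD3 #1, 31.5% in the deep libraries, 20.8% in shD3 #4 and 16.4% in siD3 #3. No test was made between these classes. The 9 members with over 20% of exon bases shared on the same strand were then left out, a limit set with the values known. This left 20 lower and 10 higher in shD3 #1, 42 and 1 in shD3 #4, 44 and 0 in siD3 #3 and 41 and 6 in deep shD3 #1. Overlap on the opposite strand was not treated in this way.

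Averaged over the 3 knockdowns in 1 model of the 17 first libraries, 54 of 77 members were lower, against 26.6% of genes, and 0 higher, against 25.3%, with 0 also at an unadjusted p under 0.05 and by DESeq2. Past both thresholds 5 were lower, against 6.96%. Taken knockdown by knockdown, 11 members were lower in all 3, against 6.14% of the genes tested in all 3: *MRPL1*, *MRPL4*, *MRPL9*, *MRPL11*, *MRPL16*, *MRPL18*, *MRPL19*, *MRPL32*, *MRPS7*, *MRPS22* and *MRPS27*. None was higher in all 3, against 3.35% of genes. All of the 11 but *MRPL16* were lower in the deep libraries too. With DESeq2 9 of the 11 remained, without *MRPL9* and *MRPS22*, and all 11 under the other 6 alternative settings. The shD3 #4 call was lost for *MRPS27* without sh4Control replicate 1 or 2 or shD3 #4 replicate 1 or 3 (adjusted p 0.054 to 0.109), and for *MRPS7* without sh4Control replicate 1 or 2 or shD3 #4 replicate 1 (0.0562 to 0.0668).

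**Figure D3:**
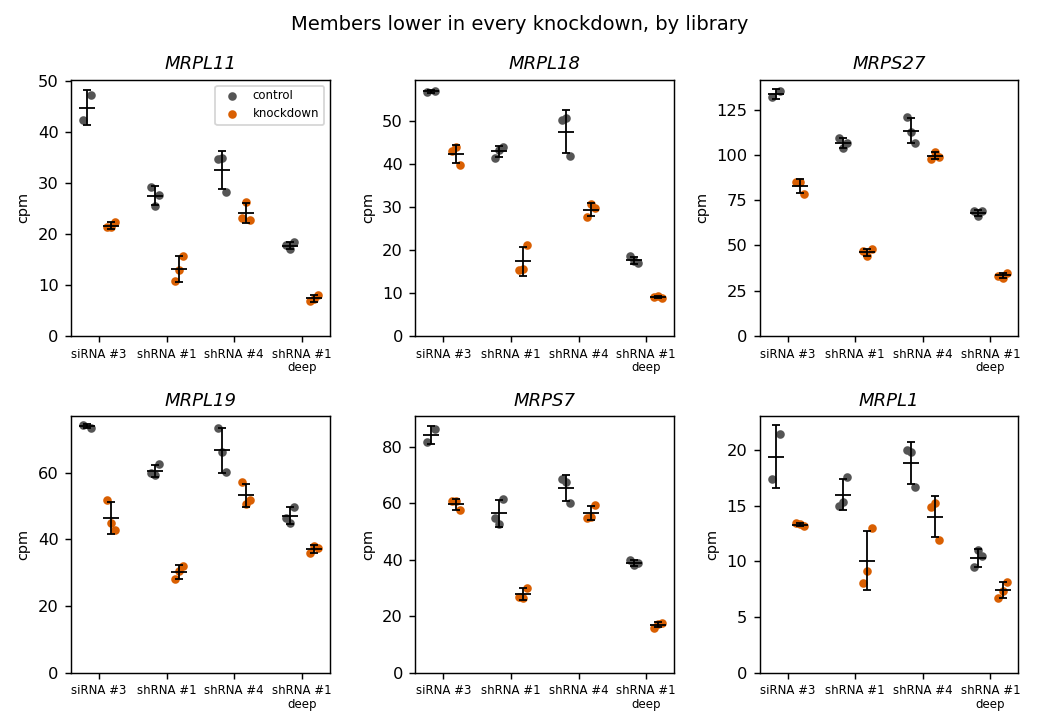
Level of the 6 members lower in all 3 knockdowns with the largest mean change, in cpm for every library, with mean and SD (n = 3, n = 2 for siControl) for controls in grey and knockdowns in orange. In each panel and comparison all knockdown points lie below all control points.

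*MRPL11*, at the base of the stalk that recruits translation factors, was the member most reduced on average (log2 -0.87, SE 0.06, adjusted p = 2.57e-10). In siControl it stood at 42.3 and 47.1 cpm and in siD3 #3 at 21.3, 21.2 and 22.3. In sh1Control it was at 29.2, 25.5 and 27.6 cpm and in shD3 #1 at 10.8, 12.8 and 15.7. The knockdown level was thus 48.4% and 47.7% of control, with log2 fold changes of -1.05 (SE 0.10, adjusted p = 0.000195) and -1.09 (SE 0.11, adjusted p = 3.56e-07). In shD3 #4 it fell less, from 34.6, 34.8 and 28.2 cpm to 23.03, 26.3 and 22.7, which is log2 -0.44 (SE 0.08, adjusted p = 0.000138). In the deep libraries it went from 17.8, 16.95 and 18.4 cpm to 6.78, 7.17 and 8.09, log2 -1.26 (SE 0.08).

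*MRPL18*, which binds 5S rRNA in bacterial-type ribosomes and sits in the central protuberance, was the member with the steepest fall under both shRNAs in the first libraries. It was at 41.6, 43.4 and 44.1 cpm in sh1Control and at 15.3, 15.7 and 21.3 in shD3 #1, log2 -1.33 (SE 0.10, adjusted p = 1.30e-08). In sh4Control it was at 50.2, 50.8 and 41.9 cpm and in shD3 #4 at 27.8, 30.9 and 29.7, log2 -0.70 (SE 0.08, adjusted p = 7.01e-08). The siRNA took it from 56.8 and 57.2 cpm to 43.1, 44.03 and 39.9, log2 -0.43 (SE 0.09, adjusted p = 0.00793; 0.0503 without siControl replicate 2). It was the only member whose siRNA effect was less negative than the mean shRNA effect by the test of that difference (0.60 on the log2 scale, adjusted p = 0.00101). *MRPL18* shares a divergent promoter with *TCP1*, a chaperonin subunit, whose start lies 109 bases away. *TCP1* was lower as well, by less than *MRPL18* under the shRNAs and by more under the siRNA (log2 -0.19, -0.38 and -0.70 in shD3 #1, shD3 #4 and siD3 #3).

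*MRPS27*, a pentatricopeptide-repeat protein of the small subunit, was close to 43.4% of its control level in shD3 #1. It stood at 109.3, 104.0 and 106.6 cpm in sh1Control and at 46.7, 44.01 and 48.0 in shD3 #1, log2 -1.21 (SE 0.06, adjusted p = 3.45e-10). In the siRNA experiment it went from 131.8 and 135.6 cpm to 85.0, 85.0 and 78.5, log2 -0.69 (SE 0.08, adjusted p = 0.000766). In shD3 #4 it fell only to 98.1, 101.6 and 99.1 cpm from 120.9, 112.7 and 106.9, log2 -0.19 (SE 0.06, adjusted p = 0.0203). The effects of the shRNAs differed by 1.02 on the log2 scale (SE 0.09, adjusted p = 2.96e-08).

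*MRPS7*, a universal protein of the small subunit head, showed the same order. In shD3 #1 it was at 26.8, 26.3 and 30.1 cpm against 55.0, 52.7 and 61.7 (log2 -1.03, SE 0.08), and in the deep libraries at 15.9, 17.4 and 17.7 against 40.0, 38.0 and 38.8 (log2 -1.20, SE 0.06). In shD3 #4 it was at 55.0, 55.3 and 59.4 cpm against 68.7, 67.5 and 60.3 (log2 -0.21, SE 0.07), and the effects of the shRNAs differed by 0.82 (SE 0.11, adjusted p = 4.80e-06). Its siRNA values were 60.8, 61.0 and 57.5 cpm against 82.0 and 86.4 (log2 -0.49, SE 0.08). *MRPL19*, of the large subunit, fell from 59.8, 59.2 and 62.6 cpm to 28.1, 30.4 and 32.1 in shD3 #1 (log2 -1.01, SE 0.07) but only from 46.4, 44.8 and 49.8 to 35.9, 38.1 and 37.3 in the deep libraries (log2 -0.34, SE 0.06). *MRPL1*, which forms the mobile stalk at the tRNA exit side, was lower by -0.71, -0.42 and -0.54 on the log2 scale in shD3 #1, shD3 #4 and siD3 #3; the last did not pass without siControl replicate 2 (adjusted p = 0.115) or siD3 #3 replicate 2 (0.0536).

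Other members responded to 1 shRNA and not, or oppositely, to the other. The difference between the shRNA effects passed the test for 36 members: in 25 the shD3 #4 effect was the lower, against 19.6% of genes, and in 11 the higher, against 19.8%. Members that passed in opposite directions in different knockdowns numbered 10 of 77, against 14.1% of the genes tested in all 3, and 8 of them were higher in shD3 #1 and lower in shD3 #4, against 5.93%.

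**Figure D4:**
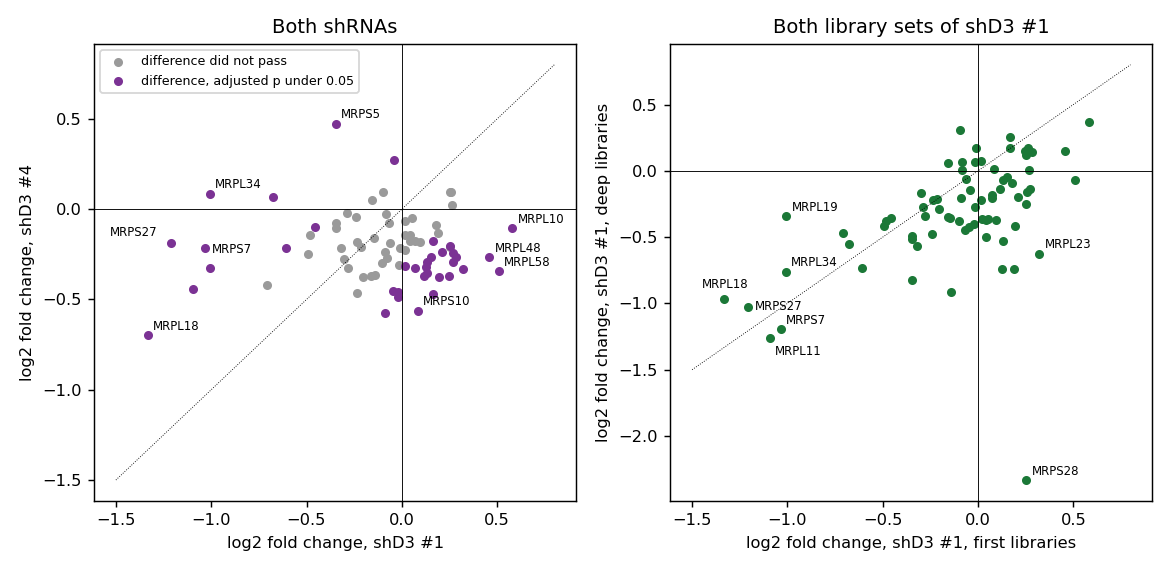
Log2 fold change of each member in shD3 #1 (horizontal, both panels) against shD3 #4 (left) and against the deep shD3 #1 libraries (right), with the dotted line at equal values. On the left, purple points passed the test of the difference between the shRNAs; *MRPL34*, *MRPS27*, *MRPS5* and *MRPS7* lie above the line and *MRPL58*, *MRPL48*, *MRPL10* and *MRPS10* below it.

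*MRPL58*, a peptidyl-tRNA hydrolase built into the large subunit that can release stalled ribosomes, showed the largest difference in the latter direction. It was at 21.2, 19.95 and 23.7 cpm in sh1Control and at 30.4, 27.3 and 35.8 in shD3 #1, log2 0.51 (SE 0.10, adjusted p = 0.000322). In sh4Control it was at 28.3, 29.4 and 24.6 cpm and in shD3 #4 at 19.9, 21.4 and 23.8, log2 -0.34 (SE 0.08, adjusted p = 0.00175). The siRNA lowered it from 34.8 and 41.3 cpm to 22.3, 26.3 and 20.9, log2 -0.71 (SE 0.13, adjusted p = 0.00524; 0.0518 without siControl replicate 2). So the shRNA groups each stood apart from their controls, on opposite sides, and the effects differed by -0.85 (SE 0.16, adjusted p = 0.000216). In the deep libraries, 16.85, 17.8 and 18.03 cpm in shD3 #1 overlapped with 19.1, 18.1 and 17.97 in the controls, so the rise in shD3 #1 was not seen again there.

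*MRPL48*, of the central protuberance, was also higher in shD3 #1 (20.9, 22.3 and 24.1 cpm against 16.7, 15.1 and 16.99, log2 0.46) and lower in shD3 #4 (15.6, 15.2 and 15.6 against 19.1, 18.1 and 18.6, log2 -0.27) and siD3 #3 (14.4, 13.8 and 14.04 against 21.0 and 22.3, log2 -0.62). Its deep values overlapped between groups. *MRPL10*, the protein that anchors the stalk, was the most raised member in the first shD3 #1 libraries, at 39.0, 34.2 and 47.6 cpm against 26.4, 26.6 and 26.9 (log2 0.58, SE 0.10, adjusted p = 9.15e-05). The deep libraries showed it higher too, at 36.5, 38.8 and 36.7 cpm against 28.3, 28.0 and 30.6 (log2 0.36, SE 0.06, adjusted p = 4.85e-05). In shD3 #4 and siD3 #3 it overlapped with its controls (log2 -0.11 and -0.10). *MRPS10*, a universal small subunit protein, did the reverse, with overlap in shD3 #1 (log2 0.08) and a fall in shD3 #4 from 30.7, 29.9 and 23.9 cpm to 19.5, 18.9 and 18.8 (log2 -0.56, SE 0.09).

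**Figure D5:**
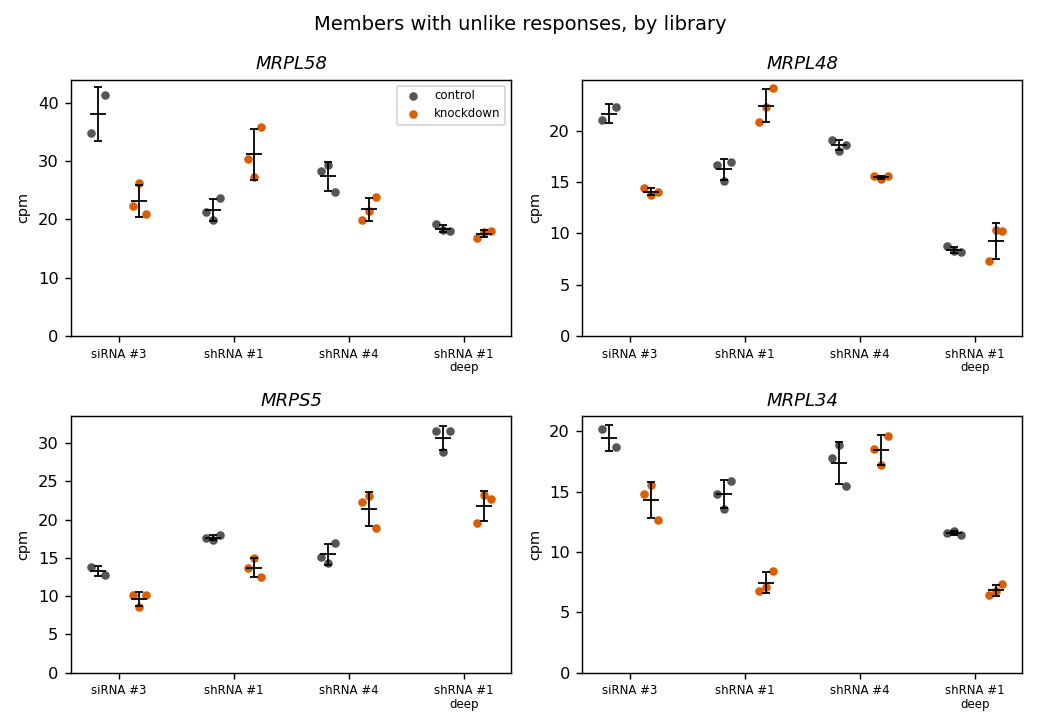
Level of *MRPL58*, *MRPL48*, *MRPS5* and *MRPL34* in cpm for every library, with mean and SD (n = 3, n = 2 for siControl), controls in grey and knockdowns in orange. *MRPL58* and *MRPL48* are above their controls in the first shD3 #1 libraries and below them in shD3 #4 and siD3 #3, and *MRPS5* is above them in shD3 #4.

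*MRPS5*, a universal protein of the small subunit near the decoding site, was the member most raised by shD3 #4. It was at 15.1, 14.3 and 16.99 cpm in sh4Control and at 22.3, 23.1 and 18.9 in shD3 #4, log2 0.47 (SE 0.09, adjusted p = 0.000135). In shD3 #1 it was lower, at 13.7, 15.0 and 12.5 cpm against 17.6, 17.3 and 18, log2 -0.35 (SE 0.09, adjusted p = 0.00388). The siRNA gave log2 -0.46 (adjusted p = 0.0385), which DESeq2 put at 0.0532 and which was lost without either siControl replicate or siD3 #3 replicate 1 or 2 (0.0848 to 0.179), and 23.3% of its exon bases are shared with another gene on its strand. *MRPL34*, a small bacterial-type protein of the large subunit, was at 6.76, 7.13 and 8.45 cpm in shD3 #1 against 14.8, 13.6 and 15.9 (log2 -1.01, SE 0.11), and overlapped with its controls in shD3 #4 (log2 0.09, SE 0.09). That difference of 1.10 (SE 0.16, adjusted p = 1.08e-05) was the largest of all members in that direction. In siD3 #3 *MRPL34* was lower (log2 -0.44, adjusted p = 0.0326), a call lost without either siControl replicate or without siD3 #3 replicate 1 or 2 (adjusted p 0.0556 to 0.175).

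The siRNA effect and the mean shRNA effect differed for 24 members, in 23 with the siRNA lower, against 14.6% of genes, and in 1 with it higher, against 14.5%. Among the 23, the largest differences after *MRPL58* (-0.79) and *MRPL48* (-0.70) were in *MRPL3* (-0.64) and *MRPL23* (-0.59), universal proteins of the large subunit. *MRPL3*, next to the peptidyl transferase centre, fell from 104.4 and 99.8 cpm to 56.3, 62.1 and 57.1 in siD3 #3 (log2 -0.80, SE 0.09, adjusted p = 0.000414). It fell in shD3 #4 as well, to 60.7, 62.1 and 64.8 cpm from 90.8, 88.7 and 79.8 (log2 -0.47, SE 0.07). In the first shD3 #1 libraries it overlapped with its controls (log2 0.17, adjusted p = 0.0866). That adjusted p was 0.0339 with a replicate block and 0.0389 without sh1Control replicate 3. In the deep shD3 #1 libraries *MRPL3* was higher (log2 0.17, SE 0.06, adjusted p = 0.0167), a call lost without deep shD3 #1 replicate 2 (0.084). *MRPL51*, also of the large subunit, stood at 49.4, 48.5 and 49.1 cpm in siD3 #3 against 79.4 and 92.1 (log2 -0.80, SE 0.09). It was lower without overlap in shD3 #4 too (log2 -0.49, adjusted p = 5.90e-06). In shD3 #1 it stood at log2 -0.02 in the first libraries and was lower in the deep ones (log2 -0.40, adjusted p = 0.000279). *MRPL23*, at the exit of the nascent chain, was higher in the first shD3 #1 libraries (log2 0.32, SE 0.08) and lower in the deep ones, at 10.2, 9.40 and 16.1 cpm against 19.3, 17.7 and 18.6 (log2 -0.63, SE 0.14), the only member to pass in opposite directions in the tables.

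Between the library sets of shD3 #1, 20 members were lower in both and 3 higher in both, out of 74 tested in both, against 23% and 24.2% of the 13897 genes matched by symbol and tested in both. The 3 were *MRPL10*, *MRPL41* and *MRPS16* (log2 0.58, 0.25 and 0.28 in the first set, 0.36, 0.15 and 0.14 in the deep set; the latter 2 are named after their values were seen). A further 26 were lower in the deep libraries and did not pass in the first ones, against 10.4% of genes, and 51 had the lower log2 fold change in the deep set, against 47.5%. Past both thresholds downward in both sets, against 7.96% of genes, were the 6 members *MRPL11*, *MRPL18*, *MRPL34*, *MRPS7*, *MRPS22* and *MRPS27*. *MRPS28*, a small subunit protein related to bacterial S1, had the largest fall in the deep libraries (0.293, 0.293 and 0.609 cpm against 1.94, 2.08 and 2.24, log2 -2.33, SE 0.26), on 8 to 124 counts and with 35.8% of its exon bases shared. In the first libraries it was at 2.28, 1.70 and 2.04 cpm against 2.02, 1.22 and 1.71 and the groups overlapped. The tables could not be fitted together, so whether the sets differ was not tested.

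The paralogs that share the S18 name sit at different places in the ribosome and were small movers. *MRPS18C*, the bacterial-type S18, was lower in shD3 #4 and siD3 #3 (log2 -0.37 and -0.39) and *MRPS18B* in the same comparisons (log2 -0.22 and -0.33), the latter with overlapping groups in shD3 #4. *MRPS18A* was lower in shD3 #4 and the deep libraries (log2 -0.24 and -0.20). With DESeq2 the shD3 #4 calls of *MRPS18A* and *MRPS18B* were lost (adjusted p = 0.0551 for each), as was the deep call of *MRPS18A* (0.103). The siD3 #3 calls of *MRPS18B* and *MRPS18C* were lost without either siControl replicate or without siD3 #3 replicate 1 or 2 (adjusted p 0.0566 to 0.152), and the *MRPS18B* call in shD3 #4 without any library but sh4Control replicate 3 (0.052 to 0.151). *MRPS30*, a large subunit protein, did not pass in any single comparison (log2 0.02, -0.14, -0.26 and 0.07 in shD3 #1, shD3 #4, siD3 #3 and deep) but was lower in the average of the 3 knockdowns (-0.14, SE 0.04, adjusted p = 0.0108). Its siD3 #3 value, at an adjusted p of 0.0599, passed in 1 fit of 17 libraries (0.0126), with a replicate block (0.0309) and without siD3 #3 replicate 3 (0.0346). *MRPS36* passed neither in a single comparison (log2 0.26, 0.09, -0.24 and -0.16) nor in the average (0.02). *MRPL12* passed only in the deep libraries, where its counts were not low (log2 -0.21, SE 0.05, adjusted p = 0.00317).

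Other genes of mitochondrial translation were taken from lists by role. For every list below, the shares of all genes tested were 27.8% lower and 28.6% higher in shD3 #1. They were 20.8% and 20% in shD3 #4, 16.4% and 16.6% in siD3 #3, and 31.5% and 31.1% in the deep libraries. No list was tested against these shares. Of 5 mitoribosomal protein genes with other symbols, siD3 #3 lowered 4, shD3 #4 lowered 2 and shD3 #1 lowered 1 and raised 2. *PTCD3*, a pentatricopeptide-repeat protein of the small subunit, was lower in shD3 #1, siD3 #3 and deep (log2 -0.31, -0.43 and -0.40), and *GADD45GIP1*, of the large subunit, in shD3 #4 and siD3 #3 (-0.60 and -0.48). *DAP3*, a GTP-binding small subunit protein, was higher in shD3 #1 (log2 0.67, SE 0.06) and in its deep libraries (0.27, SE 0.05). Of 26 tested assembly factors, shD3 #1 had 9 lower and 5 higher, shD3 #4 had 8 lower and 2 higher, and siD3 #3 had 13 lower and 0 higher; of 28 tested in the deep libraries, 14 were lower and 6 higher. *C1QBP*, a matrix protein needed for mitoribosome assembly, was lower in all 4 (log2 -0.50, -0.34, -0.90 and -0.43), as was *MRM3*, a methyltransferase of the large rRNA (-0.43, -0.30, -0.60 and -0.42). Of 16 translation factors, 5 were lower and 2 higher in shD3 #1, 1 and 0 in shD3 #4, 6 and 1 in siD3 #3 and 7 and 2 in the deep libraries. *SLIRP*, which stabilises mitochondrial mRNAs, was lower in shD3 #4, siD3 #3 and deep (log2 -0.42, -0.74 and -1.40). *POLRMT*, the mitochondrial RNA polymerase, was lower in all 4 (log2 -0.31, -0.23, -0.59 and -0.31), within a list of 13 transcription genes and regulators with 6, 7, 2 and 8 lower and 2, 1, 0 and 2 higher. The genes chosen as higher, by their mean change over the 3 knockdowns, were *TFB1M* and *TRUB2* among assembly factors, *GFM1* and *GFM2* among translation factors and *PPARGC1B* among regulators. The maxima that follow are those of whole lists and need not belong to these genes. In shD3 #1, shD3 #4, siD3 #3 and deep, the highest log2 fold changes were 0.58, 0.30, 0.20 and 0.76 for assembly factors. They were 0.40, 0.24, 0.45 and 0.45 for translation factors and 0.55, 1.1, 0.18 and 0.66 for the transcription list.

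Of the transcripts that the mitoribosome reads, most were higher in shD3 #4 and most were lower in the deep libraries. In shD3 #1 the counts lay near the shares of all genes (28.6% higher and 27.8% lower). Most did not pass in siD3 #3, where 16.6% of all genes were higher. Of 13 mitochondrial mRNAs, 4 were higher and 3 lower in shD3 #1, 12 and 0 in shD3 #4, 3 and 0 in siD3 #3 and 0 and 11 in the deep libraries. Their median log2 fold changes in that order were 0.07, 0.40, 0.48 and -0.58, of opposite sign in the library sets of shD3 #1. The whole mitochondrial genome, rRNAs included, took 24.8 to 37.4% of counts in the first libraries and 11.8 to 15.5% in the deep ones. The 13 mRNAs alone summed to 15130 to 33430 cpm in the first libraries and 115900 to 157400 cpm in the deep ones. The tables thus held these mRNAs at unlike levels, and the part of this in the opposite medians was not tested. Leaving the genes of the mitochondrial genome out before scaling shifted no comparison's median by more than 0.01. Every call of a named member at an adjusted p under 0.05 was kept. The siRNA-minus-shRNA difference of *MRPL18* was then no longer past both thresholds.

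Cytosolic ribosomal protein genes were mostly higher in the first shD3 #1 libraries but mostly lower in the deep libraries of the same shRNA. They were mostly lower in shD3 #4 and more often lower than higher in siD3 #3. Of 85 tested cytosolic ribosomal protein genes, 63 were higher and 4 lower in shD3 #1 (median 0.44), 1 and 67 in shD3 #4 (-0.42) and 2 and 19 in siD3 #3 (-0.23), and of 83 in the deep libraries 4 and 58 (-0.33). All 16 proliferation genes were lower in the 3 first comparisons, with medians of -0.93, -0.48 and -2.92, and 11 in the deep one (-0.43). Of 17 mitochondrial stress genes 7, 12, 8 and 9 were lower and 4, 0, 2 and 2 higher in shD3 #1, shD3 #4, siD3 #3 and deep. *MTHFD2*, a folate enzyme of the matrix, was lower in all 4 (log2 -0.51, -0.73, -0.98 and -0.71). *GDF15* and *DDIT3* were the genes chosen from that list as higher, by their mean change over the 3 knockdowns. The highest log2 fold changes of any gene in the list were 1.20, -0.04, 1.41 and 1.58. In shD3 #4 all 17 changes were thus negative, those of *GDF15* and *DDIT3* included. In shD3 #1, shD3 #4, siD3 #3 and deep, the members' medians were -0.02, -0.22, -0.39 and -0.28. Those of the proliferation genes were -0.93, -0.48, -2.92 and -0.43. The part of slower growth in the members' levels was not tested.

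Of all 78 members 19 have a protein-coding neighbour that starts on the other strand within 1000 bases, 24.4%, against 9.55% of 20046 protein-coding genes. *MRPL46* and *MRPS11* are each other's. In 16 pairs both genes could be tested, and the neighbours' medians were -0.21, -0.10, -0.23 and -0.42 in shD3 #1, shD3 #4, siD3 #3 and deep, next to 0.09, -0.22, -0.35 and -0.24 for the members beside them. Across these 16 pairs Spearman's rho lay between -0.18 and 0.28, as a description of genes that share their libraries.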

How the data were processed

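Total RNA from A549 cells was depleted of rRNA and made into directional libraries; per the labels, reads were trimmed with Trimmomatic 0.40 and aligned with STAR 2.7.10a to GRCh38.p14, and the authors deposited 2 tables of raw counts per gene (17 libraries with Ensembl identifiers, 6 deep libraries with symbols). The study names the RefSeq annotation, which the Ensembl identifiers do not match, and the strand column used for counting is not given in the sources used here. STAR's gene counts leave out reads on more than 1 gene.

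From these counts, cpm values were scaled by TMM, genes were kept by filterByExpr, and each knockdown was compared with its own control by edgeR 4.0.16 (quasi-likelihood test, Benjamini-Hochberg over all genes tested, threshold 0.05, with a 1.5-fold change as a second threshold). Effects were averaged and compared between knockdowns in 1 model of the 17 libraries. SE is the log2 fold change over the root of F. Exon lengths and overlaps came from GENCODE 44, promoters from RefSeq. DESeq2 1.42.0, its size factors, other filters, left-out mitochondrial genes, left-out libraries and a replicate block were alternatives. Replicate libraries are labelled biological replicates; no pair was identical within counting noise. On simulated data with 200 genes changed by 1 log2 unit, 99.5% were recovered in shD3 #1 (of 16456 genes), 100% in shD3 #4, 90.5% in siD3 #3 and 100% in the deep libraries. Unchanged genes made up 6.57%, 4.76%, 10.8% and 9.09% of the calls in that order, next to the threshold of 0.05. The changed genes were drawn from the more abundant ones, and smaller changes were not simulated. Named members were those past both thresholds (the 5 of largest change where over 8 in a direction), the 6 of largest mean change among those lower in all 3 knockdowns, the 4 of largest difference between knockdowns in each direction, the 3 of highest and of lowest cpm per kb, and 7 chosen for their roles; other lists gave at most 4. Members and lists were chosen with earlier results of these data known.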

Additional observations from a re-analysis of the deposited data

Results flagged for a closer look

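By the test of the difference itself (edgeR, adjusted p under 0.05, in 1 model of the 17 first libraries), 36 members differed between shD3 #4 and shD3 #1. In 25 shD3 #4 was the lower, against 19.6% of genes, and in 11 the higher, against 19.8%. Between siD3 #3 and the mean of the shRNAs 24 differed, 23 with the siRNA lower, against 14.6%, and 1 higher, against 14.5%. Of 77 members 41 and 53 did not pass these tests, next to 11314 and 13239 of all 18672 genes. Given here, on the log2 scale, are at most the 4 of largest difference in each direction. Between the shRNAs they were *MRPL10* (-0.69), *MRPL48* (-0.72), *MRPL58* (-0.85) and *MRPS10* (-0.65), where shD3 #4 was the lower, and *MRPL34* (1.10), *MRPS27* (1.02), *MRPS5* (0.83) and *MRPS7* (0.82), where shD3 #1 was. Between siD3 #3 and the mean of the shRNAs they were *MRPL23* (-0.59), *MRPL3* (-0.64), *MRPL48* (-0.70) and *MRPL58* (-0.79), with the siRNA lower, and *MRPL18* (0.60), with the shRNAs lower. Delivery, harvest day and doxycycline differ between the siRNA and the shRNAs and cannot be told apart.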

How the results depend on the processing

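The count of members that passed the test as lower stayed within 1.5 times its reported value under DESeq2, its size factors in edgeR, the count filters, the replicate block and 1 fit of 17 libraries in all comparisons. Higher members in shD3 #1 went from 10 to 6 with DESeq2 and in 1 fit of 17 libraries, and those past both thresholds from 0 to 1 with DESeq2 and with its size factors. In shD3 #4, lower members past both thresholds went from 1 to 2 with DESeq2, with a minimum of 1 count and in 1 fit of 17 libraries. On average 1 member was higher with 10 counts required in every sample and with the replicate block. The single member less reduced by siRNA past both thresholds, *MRPL18*, became 0 with DESeq2, its size factors, the mitochondrial genes left out or a minimum of 1 count. Same-numbered libraries of knockdown and control did not all deviate together (correlations -0.108 to 0.142). The deviations are from means of 2 or 3 libraries, so these values cannot decide whether the numbers pair samples. The main fits did not pair them. With the replicate block 21, 44, 47 and 49 members were lower in shD3 #1, shD3 #4, siD3 #3 and deep, and no call of a named member was lost. *MRPL3* in shD3 #1 (adjusted p = 0.0339) and *MRPS30* in siD3 #3 (0.0309) became calls with that block.

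With single libraries left out, lower members ranged from 19 to 47 in siD3 #3 (11 to 20 past both thresholds), and 1 to 3 were past both thresholds in shD3 #4. Higher members ranged from 4 to 11 in shD3 #1 (0 to 2 past both thresholds), 4 to 8 in the deep libraries and 0 to 1 on average. For the difference between shRNAs, 2 to 11 were lower past both thresholds (11 without shD3 #1 replicate 1, 2 without replicate 3); for siRNA against shRNA, 3 to 9 lower (9 without siControl replicate 1), 1 to 2 higher, and 0 to 1 higher past both thresholds, lost without any of 9 libraries. The cause was not tested. Of 65 calls of named members none reversed; 4 were lost with DESeq2, 2 with 10 counts required, 1 in 1 fit of 17 libraries and 15 on leaving out some library. With 2 or 3 libraries a group, small changes are at the edge of what the test can call.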
